A study of Mus musculus with 6 samples.

Results

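The mitochondrially encoded transcripts described here are 10 genes, mt-Nd1, mt-Nd2, mt-Nd4, mt-Nd5, mt-Cytb, mt-Co1, mt-Co2, mt-Co3, mt-Atp6 and mt-Atp8. They were chosen by symbol from the 31053 genes counted. The rule itself used no measured value, but the choice was made with earlier results of these data known. The 10 genes were followed in every cell with at least 200 detected genes. No upper limit was set on the mitochondrial share, because that share is the measurement. Droplet single-cell RNA sequencing with 3′ counting of unique molecular identifiers (UMIs, 1 per captured RNA molecule) was performed on live-sorted cells of 2 tissues. Kidneys came from C57BL/6 mice of 12 weeks, and mammary tumors came from MMTV-PyMT mice of 10 weeks, a model in which a mammary tumor virus promoter drives the polyoma middle T antigen in mammary epithelium. Minced tissue was digested in type I collagenase, either in a microfluidic digestion and dissociation/filter platform or for 60 min by the conventional route as a control. Platform cells were recovered at a 15 min interval and at a 60 min interval. Per the study's methods, intervals were successive: after a recovery, collagenase was added again and the remaining tissue was processed further. The 60 min interval thus holds cells from tissue left after the 15 min recovery, whereas the control holds all cells of its digestion. The kidney mice were male and the tumor mice female, so tissue, strain, sex and age cannot be told apart. Per the study's reporting summary, all conditions of a tissue were run on tissue from 1 mouse. Each tissue and condition had 1 library, so conditions were set side by side without a test, and intervals below cover counting error only.

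The mouse mitochondrial genome is a small circle of DNA that is transcribed into long precursors from which transfer RNAs are cut out, leaving the messenger and ribosomal RNAs between them. Its messenger RNAs code for core subunits of the respiratory chain and of ATP synthase, while the far larger number of remaining subunits is coded in the nucleus and imported. Cells of the kidney tubule that pump salt, above all those of the thick ascending limb and the distal segments, are known to be packed with mitochondria. In single-cell work, the mitochondrial share of a cell's UMIs is commonly used as a filter, since a cell that has lost cytoplasmic RNA through a leaking membrane also shows a high share.

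On GRCm38, the build to which mm10 corresponds, the annotation places 13 protein-coding genes on chromosome M, together with 2 ribosomal and 22 transfer RNA genes. All 13 coding genes are single exons, all are in the deposited tables under the same Ensembl identifiers, and 10 of them are the members. Complex I, which takes electrons from NADH, is represented by mt-Nd1 (2751 to 3707), mt-Nd2 (3914 to 4951), mt-Nd4 (10167 to 11544) and mt-Nd5 (11742 to 13565). Complex III is represented by mt-Cytb (14145 to 15288), the cytochrome b that passes electrons through the membrane. Complex IV, cytochrome c oxidase, is represented by mt-Co1 (5328 to 6872), mt-Co2 (7013 to 7696) and mt-Co3 (8607 to 9390). ATP synthase is represented by mt-Atp8 (7766 to 7969) and mt-Atp6 (7927 to 8607). The 10 members lie on the + strand, as do the non-members mt-Nd3 and mt-Nd4l, whereas mt-Nd6 (13552 to 14070) lies on the - strand across from the end of mt-Nd5.

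The junction of mt-Atp8 and mt-Atp6 is shown because the counts of mt-Atp8, the shortest member at 204 bases, rest on it. The 2 reading frames share 43 bases (chrM:7927-7969), printed 5′ to 3′ with the start codon of mt-Atp6 and the stop codon of mt-Atp8 in capitals.
mt-Atp8/mt-Atp6 overlap: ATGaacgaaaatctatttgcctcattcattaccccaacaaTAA
A read that reaches into this stretch overlaps both genes. How the counter divided such reads is not given in the sources used here, so the absolute level of mt-Atp8 is uncertain. The same holds for the 7 bases shared by mt-Nd4l and mt-Nd4 (10167 to 10173). In both pairs, and in the single base shared by mt-Atp6 and mt-Co3, the 5′ gene of the pair ends inside the next gene.

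The 3′ ends of 3 members are shown because UMIs were captured by poly(A) tails. The annotated length of mt-Co3, mt-Nd4 and mt-Cytb leaves 1 base past the last full codon, a T (in capitals) that becomes a stop codon when the tail is added, whereas the other 7 members end in a complete codon TAA or TAG. The last 30 bases of each are printed from the GENCODE M21 transcripts.
mt-Co3, chrM:9361-9390: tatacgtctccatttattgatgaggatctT
mt-Nd4, chrM:11515-11544: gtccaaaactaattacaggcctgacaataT
mt-Cytb, chrM:15259-15288: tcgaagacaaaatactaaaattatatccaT
The members also differ in internal A content. Runs of up to 8 A occur in mt-Nd2, which holds 5 separate stretches with at least 8 A in 10 bases, against 3 in mt-Nd5, 2 each in mt-Co1 and mt-Atp6, 1 each in mt-Co2, mt-Atp8 and mt-Nd4, and 0 in mt-Nd1, mt-Co3 and mt-Cytb. Whether such stretches captured UMIs was not tested.

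The libraries held 7888 to 13479 kidney cells and 7913 to 8025 tumor cells with at least 200 genes, and 68348013 to 114789575 UMIs each, of which the members took 7494116 to 21348408. Barcodes were also found in a second library of the same tissue, 53 to 211 per kidney pair and 16 to 21 per tumor pair, and without those cells the kidney shares given next were 12.4%, 18.7% and 15.1%. Cells were clustered without any mitochondrial gene, so the shares below were not used to form the classes. All 7 proximal tubule markers, all 5 thick ascending limb markers and all 8 luminal markers had UMIs in their class in each library, with a summed level of 55466 to 83646, 13205 to 19299 and 41607 to 45341 CPM respectively (a gene's UMIs scaled to a common total for its class and library). The same markers served to name the classes, so these levels describe the classes and do not check their names. Clusters without a clear identity are called by their 2 leading genes.

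In kidney, the 10 members took 12.4% of all UMIs in the 60 min control, 18.6% in the 15 min interval and 15.1% in the 60 min interval. In tumor, they took 8.78% in the control, 7.89% in the 15 min interval and 7.75% in the 60 min interval. Both platform libraries thus lay above their control in kidney and below it in tumor. The binomial 95% intervals spanned at most 0.02 percentage points, far less than the gaps between kidney libraries, but they hold no information on how much 2 preparations of the same kind differ. The typical cell gave a different picture from the pooled share. The median over kidney cells was 7.19% in the control, 18.1% in the 15 min interval and 9.01% in the 60 min interval, with quartiles of 3.07 and 18.4%, 10.9 and 25.6%, and 3.98 and 20.9%. The median over tumor cells was 8.02%, 6.95% and 6.63% in the same order. The members made up 96.2 to 98.1% of the UMIs of all 13 mitochondrial genes.

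In kidney, the share differed more between classes than between libraries of one class. The thick ascending limb, the salt-reabsorbing segment that makes uromodulin, had the highest share in kidney, at 41.8% in the control (256 cells), 38.1% in the 15 min interval (163 cells) and 41.2% in the 60 min interval (724 cells). This pooled range did not overlap with that of any other class followed in all 3 libraries. The medians over cells were 35.1%, 42.3% and 39.6%, so the 15 min interval was lowest by the pooled share and highest by the median, and the medians overlapped with those of the next class (26.8 to 36.0%). Next came the cluster led by Klk1 and S100g, which held distal convoluted tubule and collecting duct markers together, at 27.0%, 24.5% and 34.9%. Intercalated cells, the acid- and base-secreting cells of the collecting duct, followed at 20.1%, 26.9% and 22.7%, and their range overlapped with that of the Klk1 and S100g cluster. The proximal tubule, the segment that reabsorbs most of the filtrate, lay below at 11.9%, 18.9% and 14.0%.

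The remaining kidney classes with at least 20 cells in each library formed a group in which the ranges over the 3 libraries overlapped from each class to the next. From high to low by mean share, they were B lymphocytes (9.92 to 12.1%), endothelial cells (10.3 to 11.8%), the cluster led by Mgp and Acta2 (9.79 to 11.3%), macrophages (6.99 to 11.7%), NK cells (8.03 to 9.75%) and T lymphocytes (7.69 to 8.86%). Dendritic cells, which had too few cells in the 15 min interval to be given there, had the lowest shares, at 3.56% in the control and 4.82% in the 60 min interval. In endothelial cells a minority of cells with high shares raised the pooled value. The median endothelial cell had 4.03%, 3.19% and 4.73%, while the 95th percentile lay at 36.7%, 26.3% and 36.0%.

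**Figure D1:**
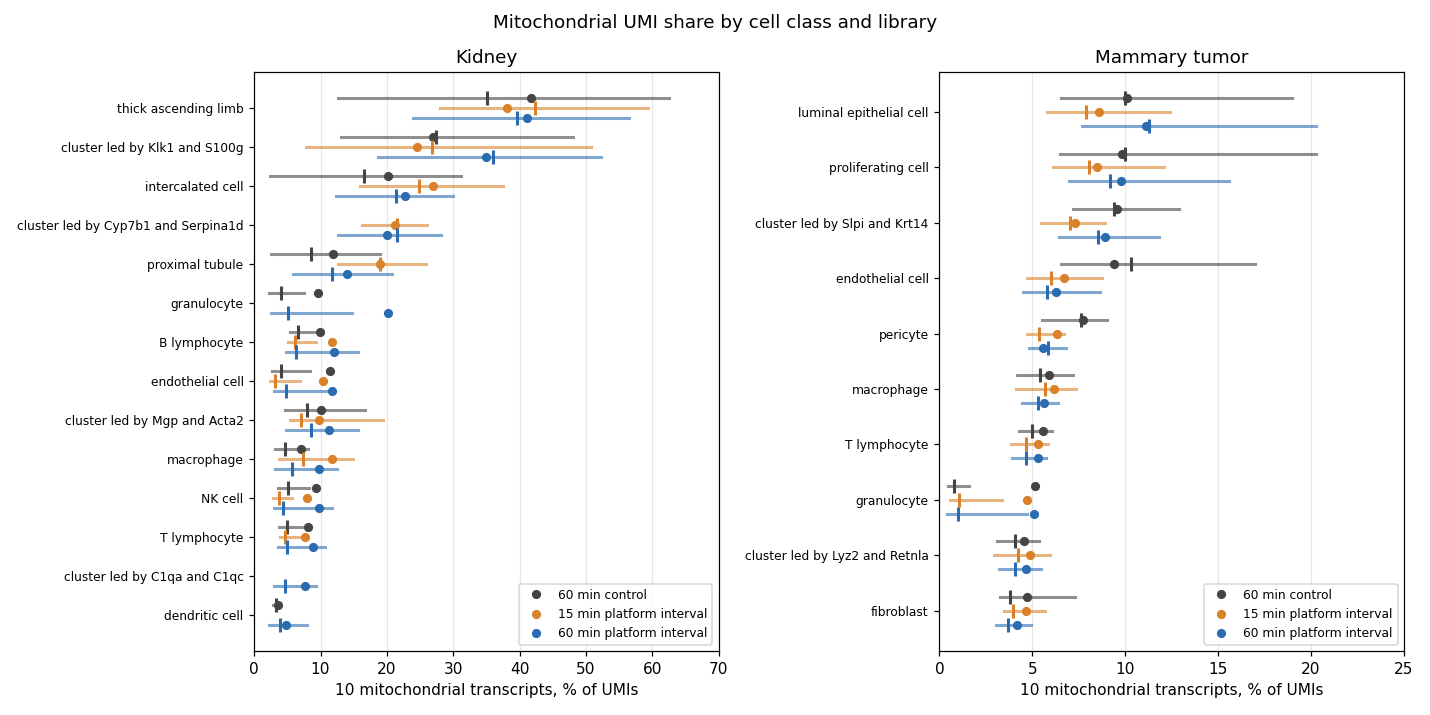
Share of UMIs from the 10 mitochondrial transcripts (x axis, percent; the scales of the 2 panels differ) in each cell class with at least 20 cells in the library, for kidney and mammary tumor. Dots are pooled shares, ticks medians and bars quartiles over cells. The thick ascending limb sits at 38.1 to 41.8% in the kidney libraries, to the right of all other classes.

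Tumor classes lay closer together. Luminal epithelial cells, the main cancer cell class, had the highest mean share, at 10.1% in the control (4829 cells), 8.61% in the 15 min interval (5247 cells) and 11.1% in the 60 min interval (2880 cells). Proliferating cells (8.46 to 9.82%), the cluster led by Slpi and Krt14 (7.32 to 9.54%), endothelial cells (6.29 to 9.41%) and pericytes (5.60 to 7.72%) followed, each overlapping with its neighbour in the order. Macrophages (5.61 to 6.17%), T lymphocytes (5.29 to 5.60%) and granulocytes (4.70 to 5.15%) were lower, and the ranges of macrophages and T lymphocytes, and of T lymphocytes and granulocytes, did not overlap. The cluster led by Lyz2 and Retnla (4.54 to 4.90%) and fibroblasts (4.19 to 4.73%) closed the order. Tumor granulocytes, short-lived cells with few mitochondria, had a median of only 0.791%, 1.08% and 0.982% per cell, which was 16, 22 and 21 member UMIs, so their pooled share came from a few cells.

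The highest tumor class value, 11.1%, lay below the lowest value of all 4 kidney tubule classes described above, the nearest being the 11.9% of the control proximal tubule. This holds for pooled shares, since the luminal medians (7.88 to 11.3%) overlapped with those of the proximal tubule (8.58 to 19.0%). By pooled share, classes found in both tissues were lower in tumor than in kidney, with T lymphocytes at 5.29 to 5.60% against 7.69 to 8.86%, macrophages at 5.61 to 6.17% against 6.99 to 11.7% and endothelial cells at 6.29 to 9.41% against 10.3 to 11.8%. By the median over cells this was not so. Tumor medians overlapped with kidney medians for T lymphocytes (4.65 to 5.00% against 4.70 to 4.89%) and macrophages (5.31 to 5.66% against 4.67 to 7.38%), and were higher for endothelial cells (5.79 to 10.3% against 3.19 to 4.73%).

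Upper mitochondrial limits, 50% for kidney and 25% for tumor in the study and set on all 13 genes, met the classes unequally. In the thick ascending limb, 37.9% of control cells (95% interval 31.9 to 44.1%, exact binomial), 36.8% of 15 min cells and 36.5% of 60 min cells were above 50%. In the Klk1 and S100g cluster these were 23.6%, 28.3% and 30.2%, against 3.50%, 2.5% and 4.40% in the proximal tubule and 0.907%, 0.922% and 2.37% in macrophages. In all kidney cells the share above the limit was 5.29%, 3.22% and 6.65%, and those cells held 23.3%, 6.39% and 26.7% of all member UMIs. In tumor, 12.6% of control cells were above 25%, against 7.45% of 15 min cells and 8.25% of 60 min cells.

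The proximal tubule was the largest kidney class, and its share was highest in the 15 min interval. By pooled share this was also so in macrophages (6.99%, 11.7% and 9.73%) and intercalated cells (20.1%, 26.9% and 22.7%). The median proximal tubule cell held 574.5 member UMIs in the control, 1670 in the 15 min interval and 998 in the 60 min interval, beside 6585, 7127 and 8203 non-mitochondrial UMIs. Both medians were thus higher in the 15 min interval than in the control, and the cause was not tested. Of 4484 control cells, 37.5% (95% interval 36.0 to 38.9%, exact binomial) had a member share below 5%. This was 4.52% (4.12 to 4.94%) of 9944 cells in the 15 min interval and 21.7% (20.5 to 22.9%) of 4725 cells in the 60 min interval. At the upper end the libraries were closer together. The 95th percentile was 41.9%, 41.8% and 45.1%, and 89.3%, 83.9% and 87.6% of cells lay below 30%.

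**Figure D2:**
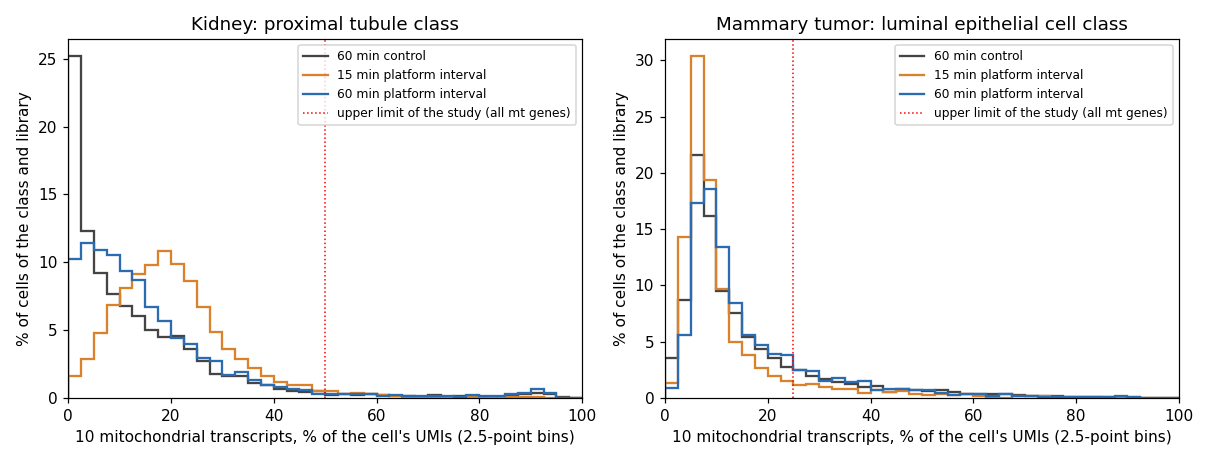
Distribution of the member share per cell (x axis, percent of the cell's UMIs, bins of 2.5 points; y axis, percent of the cells of that class and library) in the proximal tubule and the luminal class. In kidney, 37.5% of control cells lie below 5% against 4.52% of 15 min cells, and the 15 min curve has its peak near 20%.

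The difference was seen at most depths. In proximal tubule cells with 5000 to 10000 non-mitochondrial UMIs, the median share was 10.8% in the control (1104 cells), 20.1% in the 15 min interval (3277 cells) and 13.5% in the 60 min interval (1110 cells). In cells with at least 20000, it was 2.23%, 12.0% and 4.30%. The order of the 3 libraries was the same in all bins from 1000 UMIs upward, and the 15 min median fell below that of the control, 13.9% against 14.1%, only in the shallowest bin of 119 and 271 cells. In luminal cells the share also fell with depth, from 39.0% to 6.95% in the control, and above 10000 non-mitochondrial UMIs the medians of the 3 libraries lay within 6.48 to 8.57%.

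**Figure D3:**
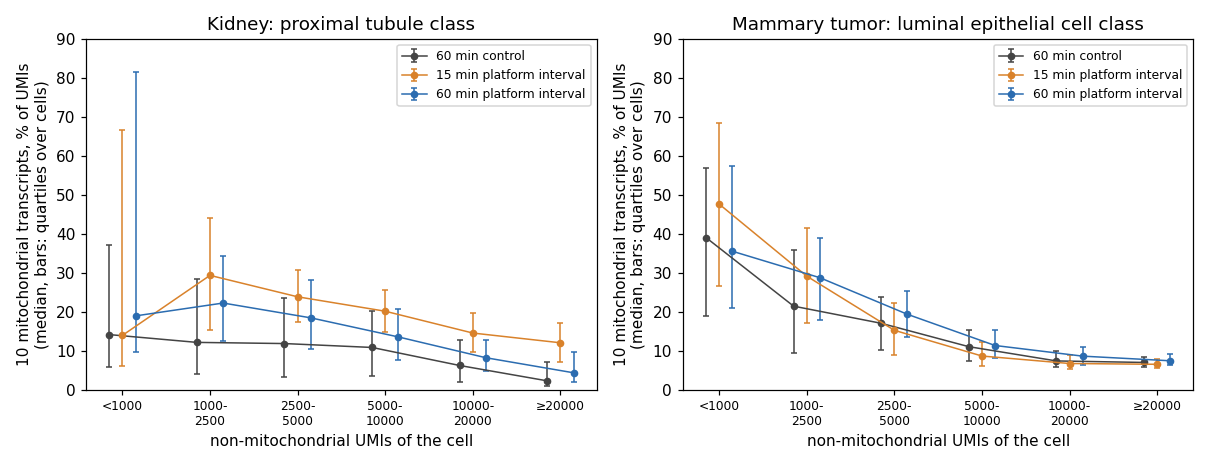
Median member share (points; bars are quartiles over cells) against the cell's non-mitochondrial UMIs, for the proximal tubule and the luminal class. The 15 min kidney interval lies above the other libraries in each bin from 1000 UMIs upward, for example at 20.1% against 10.8% in the control between 5000 and 10000.

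Proximal tubule clusters did not all move alike. In the cluster led by Gatm, Spp2 and Car3, with markers of the first segment (S1), the pooled share was 11.9% in the control, 21.6% in the 15 min interval and 12.7% in the 60 min interval. In the cluster led by Cndp2, Acy3 and Slc22a6, with S2 and S3 markers, it was 8.21%, 18.7% and 12.4%, and in the cluster led by Cyp2a4, Kap and Slco1a1 it was 14.1%, 20.5% and 15.9%. The deep S1 cluster led by Snhg11, Slc5a12 and Gm45792, with median UMIs of 15456 to 16420 per cell, had 15.9%, 13.9% and 15.6%. In the cluster led by Cyp2e1, Kap and Eci3 it was 19.4%, 13.5% and 18.4%, the 15 min value resting on 20 cells. In these last clusters the pooled 15 min value was the lowest of the 3, in the first named ones the highest. By the median over cells, the Snhg11 cluster had 11.8%, 12.5% and 11.7%, with the 15 min value highest.

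Member by member, the levels in the proximal tubule were compared as CPM of all UMIs, and a ratio past 1.5-fold was counted. For complex I, mt-Nd1 was at 5896 CPM in the control, 9424 in the 15 min interval and 6101 in the 60 min interval, mt-Nd2 at 10080, 16482 and 10701, and mt-Nd4 at 9957, 16139 and 13168. The 15 min levels were the highest for all 3, at 1.60-, 1.64- and 1.62-fold of the control, while the 60 min interval was within 1.06-fold for mt-Nd1 and mt-Nd2 and at 1.32-fold for mt-Nd4. The last of the group, mt-Nd5, was at 2222, 2918 and 2772 CPM, 1.31- and 1.25-fold of the control. For complex III, mt-Cytb was at 15104, 21585 and 17910 CPM, 1.43- and 1.19-fold.

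For complex IV, mt-Co3 was at 21161, 37248 and 21949 CPM, with the highest 15 min ratio of the members, 1.76-fold (95% counting interval 1.76 to 1.76), but only 1.04-fold at 60 min. The catalytic subunit mt-Co1 was at 11354, 18246 and 15534 CPM (1.61- and 1.37-fold), and mt-Co2 at 17248, 27052 and 21257 CPM (1.57- and 1.23-fold). For ATP synthase, mt-Atp6 was at 25497, 39011 and 30171 CPM (1.53- and 1.18-fold). Its overlapping partner mt-Atp8 did not follow this order, at 478 CPM in the control, 470 in the 15 min interval and 706 in the 60 min interval. This was 0.983-fold (0.967 to 0.999) and 1.48-fold (1.45 to 1.5), so it was the single member without a higher level at 15 min and the one with the highest 60 min ratio.

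Thus 7 of 10 members were at least 1.5-fold higher in the proximal tubule of the 15 min interval, where 11.8% of 11963 genes with at least 50 UMIs in the 2 libraries together were. None of the 10 passed 1.5-fold in either direction at 60 min, where 14.5% of 11731 genes did. The 2 comparisons share their control library. Nuclear-retained RNA, early response genes and markers of other cell types also differed between the libraries of this class. The sums given next were each highest in the 60 min interval, with the marker lists that were not named after them. The 5 nuclear and ribosomal-repeat RNAs summed to 25156 CPM in the control, 36943 in the 15 min interval and 42819 in the 60 min interval, with Malat1 at 15681, 27932 and 34971. Of 12 stress and early response genes that the study named, 8 were at least 1.5-fold lower at 15 min, where 3.99% of all genes were, and 9 at least 1.5-fold higher at 60 min, where 12.7% were, with a sum of 5961, 4287 and 7729 CPM. Markers of red blood cells summed to 0.306, 0.899 and 110 CPM, those of the thick ascending limb to 8.65, 4.77 and 28.9 CPM, and those of macrophages to 16.4, 4.88 and 27.2 CPM. All 5 thick ascending limb and all 7 macrophage markers had UMIs in each library, and Alas2 was at 0 in the control. Not highest at 60 min were the markers of mesangial and mural cells (12.5, 17.8 and 16.7 CPM), proliferating cells (3.90, 4.11 and 2.21 CPM) and intercalated cells (2.36, 1.32 and 2.29 CPM). The part of these in the result was not tested.

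Other kidney classes did not all follow the proximal tubule. In macrophages, 9 of 10 members were at least 1.5-fold higher at 15 min, where 21.0% of genes were, with a member sum of 69912 CPM in the control and 117044 at 15 min. At 60 min the sum was 97282 CPM and 4 of 10 members passed, where 10.9% of genes did. In endothelial cells the sums were 114196, 103371 and 118232 CPM. There 1 member, mt-Atp8, was at least 1.5-fold lower at 15 min (6.10% of genes were), and none passed in either direction at 60 min (9.04% of genes did). In the thick ascending limb the sums were 417926, 381453 and 411647 CPM. Here too mt-Atp8 alone was at least 1.5-fold lower at 15 min, at 0.555-fold (3.60% of genes were), and none passed in either direction at 60 min (16.3% of genes did).

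Over the other kidney classes, 2 of 60 member values were at least 1.5-fold higher at 15 min (12.0% of all gene values were) and 2 were at least 1.5-fold lower (16.6% were). At 60 min, 23 of 80 were at least 1.5-fold higher (7.85% were). Of these 23, 10 came from the granulocytes, which had 39 and 50 cells, with a member sum of 9.59% of UMIs in the control and 20.1% in the 60 min interval, beside medians of 4.09% and 5.09%.

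In the luminal class of the tumor, no member passed 1.5-fold in either comparison. At 15 min all 10 were below the control, from 0.693-fold for mt-Nd5 to 0.891-fold for mt-Co2, where 17.1% of genes passed in either direction. At 60 min they lay between 0.954-fold for mt-Nd5 and 1.12-fold for mt-Co1, mt-Co2 and mt-Atp6, where 8.51% of genes passed. The most abundant member, mt-Atp6, was at 25152 CPM in the control, 21067 in the 15 min and 28076 in the 60 min interval, and mt-Co3 at 21631, 18085 and 23839 CPM.

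Tumor endothelial cells had the largest gap to the control among the tumor classes with over 100 cells in each library. Their member sum was 94131 CPM in the control, 67059 in the 15 min and 62921 in the 60 min interval. At 15 min mt-Nd5 alone was at least 1.5-fold lower (4.29% of genes were), and at 60 min 6 of 10 members were (9.41% of genes). The median depth of these cells was 4400.5 UMIs in the control against 8314 and 8815, so depth moved with the result, and its part was not tested. Tumor macrophages had sums of 58967, 61677 and 56092 CPM, and no member passed at 15 min (32.0% of genes did) or at 60 min (17.0%). Nor did any in fibroblasts at 15 min (17.8% of genes) or at 60 min (24.0%). In the other tumor classes together, 3 of 60 member values were at least 1.5-fold lower at 15 min (5.95% of all gene values were) and 1 of 60 at 60 min (6.75%).

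Within the luminal class, the cluster led by Gm26917 and Lars2 stood apart. It was shallow, with a median of 2158 to 2665 UMIs per cell, and its pooled share was 24.0% in the control (1028 cells), 28.6% in the 15 min interval (397 cells) and 29.0% in the 60 min interval (516 cells). The other 4 luminal clusters lay between 6.71 and 16.0%, below it in each library.

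Levels of different members were compared per kilobase of gene length. Since UMIs were captured at the 3′ end, a molecule gives 1 UMI whatever its length, so this scale favours short genes. In each of the 6 libraries mt-Atp6 came first, with 27580 to 56431 CPM per kilobase. Next were mt-Co3 (21106 to 46850) and mt-Co2 (16106 to 39041), with mt-Co2 above mt-Co3 only in the 60 min kidney interval (33490 against 30994). The gap to mt-Cytb was wide, at 13392 to 18565 in kidney and 6638 to 7612 in tumor. Last in each library was mt-Nd5, at 1531 to 1561 in the kidney platform libraries, 1154 in the kidney control and 312 to 419 in tumor, while mt-Atp8 came just above it. Genes of one precursor therefore differed widely in counted level. At least 1 UMI of mt-Atp6 was found in 99.4 to 100 percent of cells, of mt-Nd5 in 88.9 to 97.3% and of mt-Atp8 in 67.7 to 86.2%.

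The composition of the member UMIs, each member's part of their sum, differed between the kidney libraries. The share of mt-Co3 among member UMIs was 18.2% in the control, 19.7% in the 15 min interval and 16.1% in the 60 min interval. In all 10 classes with at least 20 cells in each library, the 15 min value was the highest and the 60 min value the lowest. The share of mt-Atp8 was 0.378%, 0.247% and 0.485%, and it was lowest at 15 min and highest at 60 min in all 10 classes. The share of mt-Nd4 was 8.07%, 8.52% and 9.18%, in the same order in all 10 classes, and that of mt-Nd5 was 1.70%, 1.53% and 1.85%, highest at 60 min in all 10. For mt-Nd2 (8.08%, 8.68% and 7.27%) the 60 min interval was lowest in all 10 classes. For mt-Nd1 (4.75%, 4.97% and 4.19%) the 15 min interval was highest in all 10.

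The non-member mt-Nd4l, a complex I subunit whose frame overlaps the start of mt-Nd4, showed the largest shift of composition. Set against the member UMIs it was at 1.18% in the control, 1.03% in the 15 min interval and 2.37% in the 60 min interval. The 60 min ratio to the control ran from 1.96 to 2.64 over 12 kidney classes, epithelial, endothelial and immune alike. The 15 min ratio ran from 0.786 to 1.13 over 10 classes. For mt-Atp8 the same ratios ran from 1.25 to 1.80 at 60 min and from 0.579 to 0.847 at 15 min, with no class crossing 1. Both genes are the 5′ member of an overlapping pair. By contrast mt-Co2, at 14.4 to 15.1% in the platform libraries and 14.7% in the control, kept close to the same part. The part of mt-Atp6 was 20.7 to 21.4% in the platform libraries and 21.6% in the control. Its shift was small but ran one way at 15 min, with ratios of 0.904 to 0.967 over 10 classes, against 0.960 to 1.05 at 60 min.

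In tumor, the composition varied less. The share of mt-Co3 was 21.4%, 21.0% and 21.5%, that of mt-Atp6 24.5%, 24.2% and 24.2%, and that of mt-Atp8 0.221%, 0.191% and 0.192%. The ratio for mt-Nd4l was 0.631 to 1.04 at 15 min and 0.689 to 1.02 at 60 min over 10 classes, so the 60 min kidney pattern was not seen in the 60 min tumor library. The non-member mt-Nd3, also of complex I, was lowest at 60 min in all 10 classes of both tissues, at 1.53% against 1.73% in the control in kidney and 1.44% against 1.77% in tumor.

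**Figure D4:**
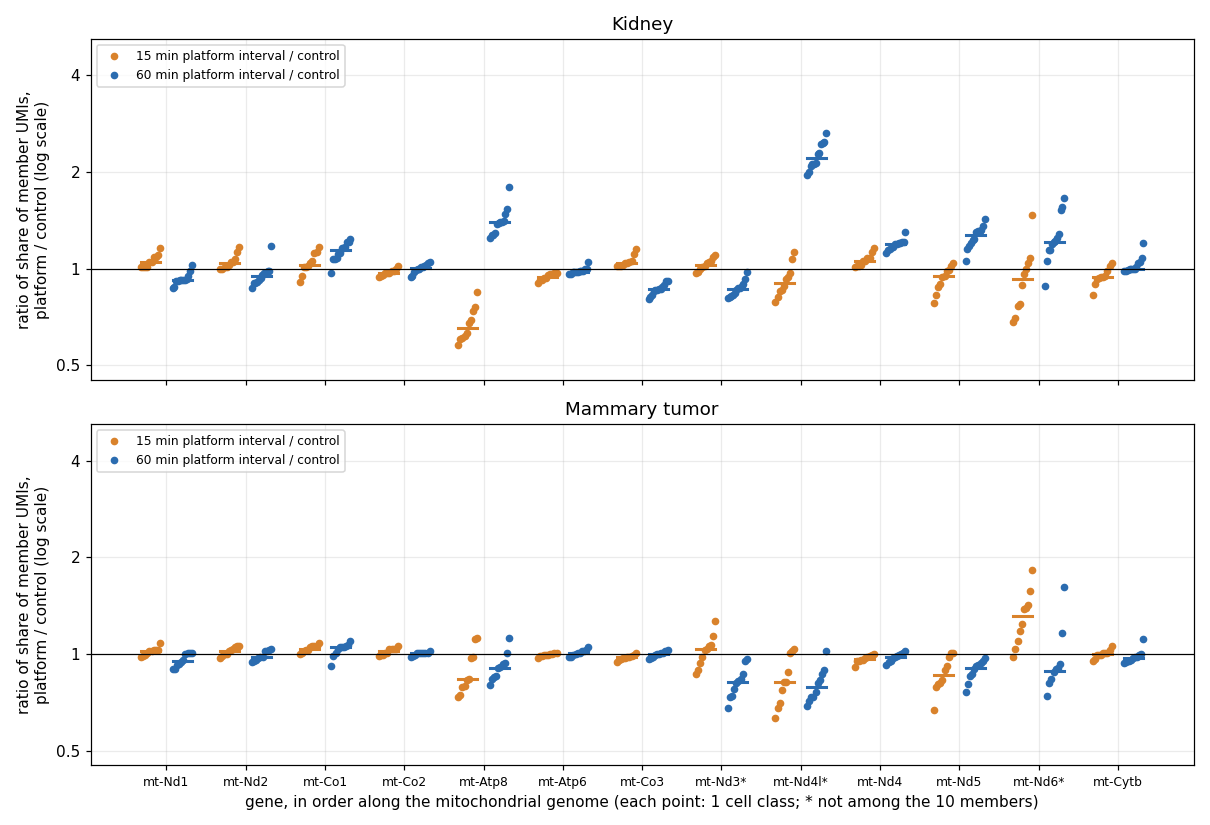
Ratio of each gene's share of member UMIs, platform over control (y axis, log scale), for the 13 coding genes in order along the mitochondrial genome. Each point is 1 cell class, bars are medians over classes. In kidney, mt-Nd4l lies at 1.96 to 2.64 in the 60 min interval and mt-Atp8 falls on opposite sides of 1 in the 15 min and 60 min intervals.

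Composition also differed between the tissues. As whole libraries, those of the tumor lay outside the range of those of the kidney for all 10 members. Tumor was lower for mt-Nd2 (5.14 to 5.39% against 7.27 to 8.68%), mt-Nd4 (5.69 to 5.92% against 8.07 to 9.18%), mt-Nd5 (0.721 to 0.870% against 1.53 to 1.85%) mt-Cytb (9.80 to 9.92% against 11.4 to 12.4%), mt-Co2 (13.9 to 14.3% against 14.4 to 15.1%) and mt-Atp8 (0.191 to 0.221% against 0.247 to 0.485%). It was higher for mt-Co3 (21.0 to 21.5% against 16.1 to 19.7%), mt-Atp6 (24.2 to 24.5% against 20.7 to 21.6%), mt-Co1 (12.7 to 13.1% against 9.86 to 12.1%) and mt-Nd1 (5.38 to 5.52% against 4.19 to 4.97%). These whole-library values mix different cell classes in the 2 tissues. Over single classes in all libraries, the ranges of the tissues overlapped for every member but mt-Nd4 and mt-Nd5. In the control libraries, for example, mt-Co2 ran from 14.5 to 16.6% over kidney classes and from 13.3 to 16.7% over tumor classes. The part of the class mix was not tested. The tables of the 2 tissues were normalized separately by the authors.

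The nuclear-encoded partners of the members did not follow them in the proximal tubule of the 15 min interval. Summed levels of the complex I list (36 genes) were 22228 CPM in the control, 18396 in the 15 min and 20610 in the 60 min interval, with Ndufa13 at 1416, 1175 and 1197. The complex III list (9 genes) was at 8810, 7032 and 8227, with the hinge protein gene Uqcrh at 1300, 1033 and 1143. The complex IV list (11 genes) was at 19763, 17204 and 19105, with Cox8a at 2898, 2446 and 2703. The ATP synthase list (15 genes) was at 18970, 14926 and 17853, with the catalytic beta subunit gene Atp5b at 2207, 1936 and 2056. All 4 sums were lowest at 15 min, at 0.787- to 0.871-fold of the control, where the median gene tested was at 0.962-fold and the member sum at 1.58-fold. No gene of these lists passed 1.5-fold in either direction, and 0 of 4 did for complex II, which has no mitochondrially encoded subunit (1672, 1428 and 1535 CPM).

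Genes that maintain and express mitochondrial DNA were also read as a list. Of 27 of them in the proximal tubule, Polg and Fastkd5 were at least 1.5-fold higher at 15 min, where 11.8% of all genes were. Polg2 and Trmt10c were at least 1.5-fold lower, where 3.99% of all genes were. These 4 were named after their values were seen. At 60 min 0 passed, where 14.5% of all genes did in either direction. The sums of the maintenance list were 1219, 1020 and 1153 CPM. Of 7 regulators of mitochondrial biogenesis, 0 passed at 15 min and 1 was at least 1.5-fold higher at 60 min, where 12.7% of all genes were. It was Ppargc1a, the coactivator PGC-1 alpha, at 26.8 CPM in the control, 30.9 in the 15 min and 41.6 in the 60 min interval. In the luminal class, 0 of the nuclear subunit genes of the 5 complexes passed in either comparison. There 5 of the 27 maintenance genes were at least 1.5-fold higher at 15 min, Tfam among them, where 12.0% of all genes were, and 0 at 60 min, and 1 of 6 biogenesis genes tested, Ppargc1b, at 15 min. In kidney macrophages nuclear and mitochondrial genes were both higher at 15 min, with the complex I list at 4928, 6899 and 5235 CPM. There 11 of its genes were at least 1.5-fold higher at 15 min, where 21.0% of all genes tested were.

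Across classes, nuclear and mitochondrial subunit levels went together. Scaled to non-mitochondrial UMIs, the 71 nuclear-encoded subunits of complexes I, III, IV and V summed to 114030 CPM in the thick ascending limb of the control, the highest value, and the members there to 735449. The proximal tubule had 79520 for the nuclear subunits and 135626 for the members in the same library, and dendritic cells 18835 and 36939. Over 34 points in kidney, from 14 classes, Pearson's r of the log values was 0.85, and over 28 points in tumor, from 10 classes, 0.69. These points share libraries and a scaling denominator, so r is a description only. Relative to nuclear subunits, the thick ascending limb of the control thus had more member UMIs than the proximal tubule. This was not particular to the limb. Granulocytes of the 60 min interval had 22022 for the nuclear subunits and 253396 for the members, and control endothelial cells 26070 and 129421. The proximal tubule of the 15 min interval had 71422 and 233995.

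Among the nuclear genes whose pattern was most like that of the members in kidney, of 6629 compared over the 34 points, were Gm44386 (r = 0.93), Fgf9 (0.92), Acadvl, a fatty acid oxidation enzyme gene (0.90), and Mgst3 (0.90). These 4 were highest in the thick ascending limb, Mgst3 at 801 CPM of non-mitochondrial UMIs. In tumor, among 6191 genes over 28 points, the 5 most alike were Taf1d (0.90), Uqcr11, a complex III subunit gene (0.88), Gm47283 (0.88), 2010111I01Rik (0.86) and Qars (0.86), of which 4 were highest in proliferating cells of the control.

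**Figure D5:**
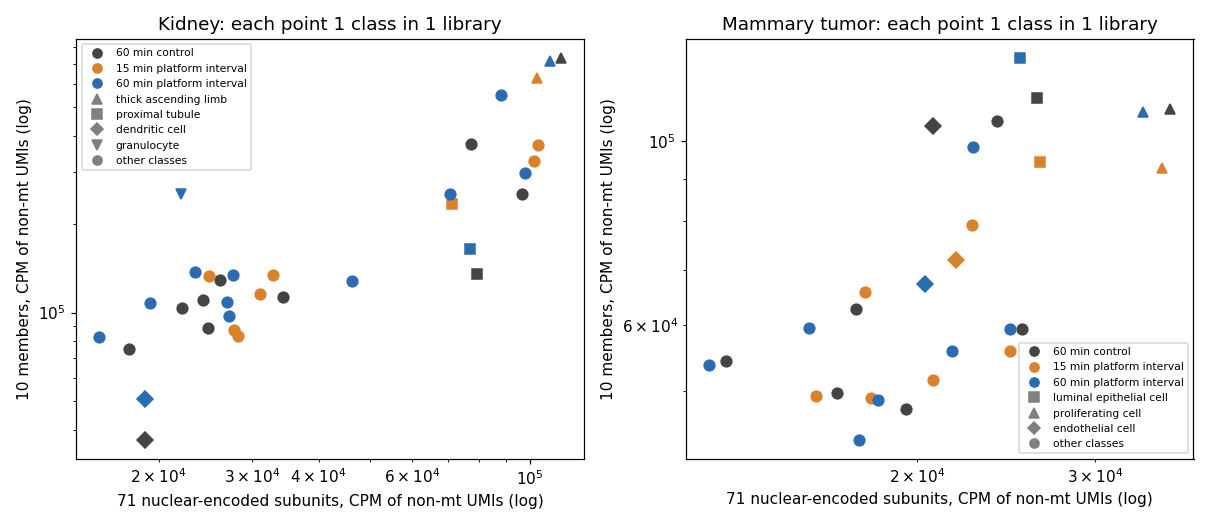
Summed level of 71 nuclear-encoded subunits (x axis, CPM of non-mitochondrial UMIs, log scale) against that of the 10 members (y axis, same unit, log scale). Each point is 1 class of at least 50 cells in 1 library. The 3 thick ascending limb points lie at the upper right of the kidney panel, at 628974 to 735449 CPM of members.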

How the data were processed

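Per the labels and the study's methods, the authors aligned reads to mm10 and counted UMIs with Cell Ranger 3.1.0, then merged the 3 libraries of each tissue with Cell Ranger Aggr, which normalized mapped reads per cell. Median UMIs per cell still differed, from 5654 to 8412 in kidney and from 8577 to 10525 in tumor. The deposited values are UMI counts per gene and cell, with no replicate library, and the members and gene lists used here were chosen with earlier results of these data known. Cells with at least 200 genes were clustered per tissue with scanpy 1.11.5 and leidenalg 0.10.2, leaving out mitochondrial genes (2000 variable genes, 20 components, 20 neighbours, resolution 0.5). Classes were named by markers and given with at least 20 cells. Scrublet marked 0 cells of the 15 min kidney library, where it did not work, and 1.32 to 3.94% elsewhere; marked cells were kept. Shares are ratios of summed UMIs with exact binomial intervals, folds are ratios of CPM with exact conditional intervals, and a fold past 1.5 was counted among genes with at least 50 UMIs. The fold computation was tested on simulated data. All 10 members, 3 other coding genes, up to 3 leading genes per list and the 5 most similar nuclear genes per tissue were named, except 1 in kidney that is not reported here. Positions and sequences come from GENCODE M21 (GRCm38), and all 13 genes matched by identifier. Alternatives covered cell limits, doublets, depth, summary, class definition, scaling and count minimum.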

Additional observations from a re-analysis of the deposited data

Results flagged for a closer look

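The pooled share of whole platform libraries lay on opposite sides of the control in the 2 tissues, which was not tested because each condition had 1 library. The member share of all UMIs was 6.22 percentage points above the control in kidney and changed by -0.890 in tumor at 15 min, a gap of 7.11 points. At 60 min the differences were 2.75 and -1.03 points, a gap of 3.79 points. The class mix moved with these values, and its part was not tested. Proximal tubule cells numbered 4484 of 7888 in the control, 9944 of 11521 at 15 min and 4725 of 13479 at 60 min, and luminal cells 4829 of 7913, 5247 of 8025 and 2880 of 7974. Within the luminal class the 60 min share was 1.04 points above the control, the same direction as in kidney.

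Barcodes with under 200 genes were left out of every comparison. In them the members took 93.6% of UMIs in the kidney control (345 barcodes), 94.5% in the 15 min interval (561) and 93.3% in the 60 min interval (240). In tumor they took 81.2% in the control (264), 88.5% in the 15 min interval (173) and 88.4% in the 60 min interval (178). The median such barcode held 3466 to 4571 UMIs in kidney and 1110.5 to 1309 in tumor.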

How the results depend on the processing

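None of the 4 class differences recomputed here (proximal tubule and luminal, at 15 and 60 min) changed sign under any alternative. Other classes were not recomputed, and some, given beside their values, changed order between pooled share and median. Settings are given in the order control, 15 min, 60 min, and values that moved by less than counting error are left out. The kidney member share of all UMIs was 11.7, 21.0 and 13.2% with the study's limits, 16.0, 22.4 and 18.8% with the upper gene limit alone, 11.4, 18.5 and 14.2% with at least 500 genes, 11.3, 18.4 and 13.9% with at least 1000 non-mitochondrial UMIs, 12.3 and 15.2% (control, 60 min) without marked doublets, 12.4, 18.7 and 15.1% without shared barcodes, 7.19, 18.1 and 9.01% as the median over cells and 12.7, 19.1 and 15.7% with all 13 genes. The tumor share was 8.22, 7.63 and 7.5%, then 9.95, 8.79 and 8.61%, 8.54, 7.79 and 7.61%, 8.52, 7.74 and 7.59%, 8.81, 7.92 and 7.76%, 8.02, 6.95 and 6.63%, and 8.99, 8.08 and 7.90% under the same settings, shared barcodes excepted. The proximal tubule share was 13.9% (60 min) at resolution 1, 11.7 and 13.6% (control, 60 min) by marker score per cell, 11.9, 18.8 and 14.0% with 30 components, 12.1, 18.9 and 14.6% with mitochondrial genes in the clustering and 11.9, 19.0 and 14.2% without shared barcodes. The luminal share was 10.1, 8.53 and 10.8% at resolution 1, 9.39, 8.23 and 10.1% by marker score, 10.1, 8.54 and 10.8% with 30 components, and 8.58 and 11.1% (platform) with mitochondrial genes clustered.

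The proximal tubule difference at 15 min (6.96 points) was 8.16 with the study's limits, 5.72 with the upper gene limit, 7.64 and 7.68 with the depth minimums, 7.02 without doublets (removed from the control only, as none were marked at 15 min), 7.09 without shared barcodes, 10.5 by medians, 7.15 with 13 genes, 7.11 by marker score, 6.99 with 30 components and 6.76 with mitochondrial genes clustered. At 60 min (2.13) it was 2.57, 4.46, 2.06, 1.94, 2.17, 2.24, 3.27, 2.35, 1.83, 2.19 and 2.51 in that order, and 2.03 at resolution 1. The luminal difference at 15 min (-1.50) was -1.27, -2.24, -1.28 and -1.34 under the first 4, then -2.12 by medians, -1.54 with 13 genes and at resolution 1, -1.16 by marker score, -1.52 with 30 components and -1.53 with mitochondrial genes clustered. At 60 min (1.04) it was 0.809, 0.695, 1.06, 1.02, 1.25, 1.02, 0.699, 0.709, 0.714 and 0.968 in the same order.

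With CPM of non-mitochondrial UMIs, 1 member in place of 0 passed 1.5-fold in the proximal tubule at 60 min, and the nuclear subunit ratio (0.825, 0.943; luminal 1.02, 0.952) was 0.898 and 0.969, and 1.01 and 0.963. With the study's limits it was 0.837 and 0.966, and 1.02 and 0.973, and 1 luminal member in place of 0 passed at 15 min, as did 2 by the mean over cells. With those limits mt-Co3 made up 18.9, 19.9 and 16.8% of member UMIs in kidney and 21.8, 21.3 and 21.9% in tumor, and mt-Atp8 0.386 and 0.245% in kidney (control, 15 min) and 0.187 and 0.188% in the tumor platform libraries. The cause of these shifts was not tested. The setting without shared barcodes was chosen after seeing the data. No paired analysis was possible because each condition had 1 library, and for the same reason no library could be left out.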
